A study of Mus musculus with 2 samples.

Results

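The macrophages described here were 1168 of the 7778 macrophages found in MC38 tumours, 605 of them in the control library and 563 in the knockdown library. They were the top 15% of macrophages by the summed UMIs (unique molecular identifiers, each standing for 1 captured transcript) of Cd72, Slamf9, Negr1 and Clec12a per 10000 UMIs of the cell, with both libraries ranked together. A barcode counted as a macrophage when it held at least 1000 UMIs, at most 20% mitochondrial UMIs, at least 5 UMIs and at least 20 per 10000 from the complement genes C1qa, C1qb and C1qc, no Cd3d or Cd3e UMI, and at most 2 UMIs of the tumour-cell genes Hmga2 and Rhox5. The series held 28546 barcodes of at least 1000 UMIs in all. The ranked macrophages above the threshold are called members below, and the 6610 macrophages under it are called the other macrophages.

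Tumour macrophages descend mostly from blood monocytes and take up several transcriptional states, which differ in antigen presentation, lipid handling, matrix remodelling and inflammatory signalling. Cd72 encodes a C-type lectin best known as an inhibitory coreceptor of B cells, and Clec12a encodes an inhibitory C-type lectin of myeloid cells. Both carry an immunoreceptor tyrosine-based inhibitory motif, which recruits the phosphatase SHP-1 and so opposes signalling through activating receptors that use ITAM (immunoreceptor tyrosine-based activation motif) adapters. Slamf9 encodes a receptor of the SLAM family with a short cytoplasmic tail. Negr1 encodes a GPI-anchored cell adhesion molecule of the IgLON family, best known from neurons.

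The 2 libraries came from dissociated tumours of MC38, a mouse colon adenocarcinoma line, and were made with a 10x Genomics 3' kit. The control tumour has the genotype Mbtps1 WT and the other has Mbtps1 KD, which the series text calls a knockout and which is called knockdown here. Mbtps1 encodes the site-1 protease, and neither the cells that carry the change, the number of tumours in each library nor the age of the hosts is stated in the labels. The series was made to compare the tumour microenvironment with and without loss of Mbtps1.

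With 1 library per group no difference between control and knockdown has a replicate check, and no p-value was computed. The intervals in parentheses are 95% exact intervals that cover counting error only. Levels are CPM, the UMIs of a gene per 1000000 UMIs summed over the cells named. The median depth was 6819 UMIs in control members and 6366 in the other control macrophages, and 4678 and 4412 in the knockdown library. No barcode was shared between the members of the 2 libraries, and 5 were shared among all macrophages. The targeted gene stood at 21.9 CPM in control members and 19.2 in knockdown members, a ratio of 0.880 (0.618 to 1.24), and its ratio in the other macrophages was 1.07 (0.924 to 1.25).

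The 4 ranking genes chose the members, so their levels are a description. Cd72 stood at 1529 CPM in control members against 395 in the other control macrophages, and 1337 against 329.8 in knockdown. Slamf9 stood at 561 and 556 CPM in control and knockdown members against 150.1 and 144 in the other macrophages. Clec12a stood at 562 CPM in members and 237 in the other macrophages of the control library, and at 656 and 277 in knockdown. For each of these 3 genes the members lay 2.37-fold or more above the other macrophages in both libraries. Negr1 differed most, at 198 CPM in control members against 17.6 in the other control macrophages, and 226 against 16.9 in knockdown, which is 11.3-fold in control and 13.4-fold in knockdown. Cd72 gave the largest share of the score, with 53.7% of the members' ranking UMIs in control and 48.2% in knockdown. The lowest member held 19.34 ranking UMIs per 10000 and the highest of the other macrophages held 19.33. The score was continuous across the threshold, with 213 members within 2 per 10000 above it and 279 of the other macrophages within 2 below it. The median score was 26.4 and 25.8 in control and knockdown members and 7.03 and 6.59 in the other macrophages, of which 889 held none of the ranking UMIs.

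In GENCODE vM21 on GRCm38, Slamf9 lies at chr1:172475358-172478575 on the plus strand and Negr1 at chr3:156561794-157316445 on the plus strand. Cd72 lies at chr4:43446462-43454628 on the minus strand, where it overlaps Tesk1 on the plus strand, and Clec12a at chr6:129342691-129365303 on the plus strand. The 4 genes are on different chromosomes. The labels and file headers name no build, so these positions serve only to place the genes.

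Each ranking gene was also read in cells chosen without it. The 4 genes were picked with earlier results of these data known, so these ratios too are a description. When macrophages were ranked on the other 3 genes and the top 15% taken, Cd72 was 2.52-fold (2.43 to 2.61) higher in the chosen cells than in the rest in control and 2.33-fold (2.22 to 2.43) higher in knockdown. Slamf9 left out of its own ranking was 2.96-fold and 2.77-fold higher, and Clec12a 1.81-fold and 1.68-fold. Negr1, the rarest of the 4 transcripts, was 5.99-fold (5.36 to 6.69) and 5.15-fold (4.5 to 5.89) higher among cells chosen without it. When each cell's UMIs were divided at random and the cells ranked on one set, the other set gave 3.05-fold and 2.92-fold for Cd72 and 9.25-fold and 6.93-fold for Negr1. Of the members, 896 were also chosen by that ranking on part of the UMIs.

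The number of ranking genes seen in a cell follows in part from the ranking and is given as a description. All 4 were seen in 33.2% of control members and 33.4% of knockdown members, against 3.58% and 2.31% of the other macrophages. With each cell thinned to 1000 UMIs, 3 or 4 of them were seen in 19.7% and 19.5% of members against 1.01% and 1.25% of the other macrophages. Negr1 was seen in 38.0% of control and 40.3% of knockdown members at full depth, and in 13.1% and 15.3% after thinning. Its share in T cells, which should lack it, was 0.431% and 0.367% at full depth, at median depths of 3114 and 2335 UMIs. Cd72 was seen in 78.3% and 75.5% of thinned members, 27.7% and 25.4% of thinned other macrophages, and 1.72% and 1.84% of thinned T cells.

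**Figure D1:**
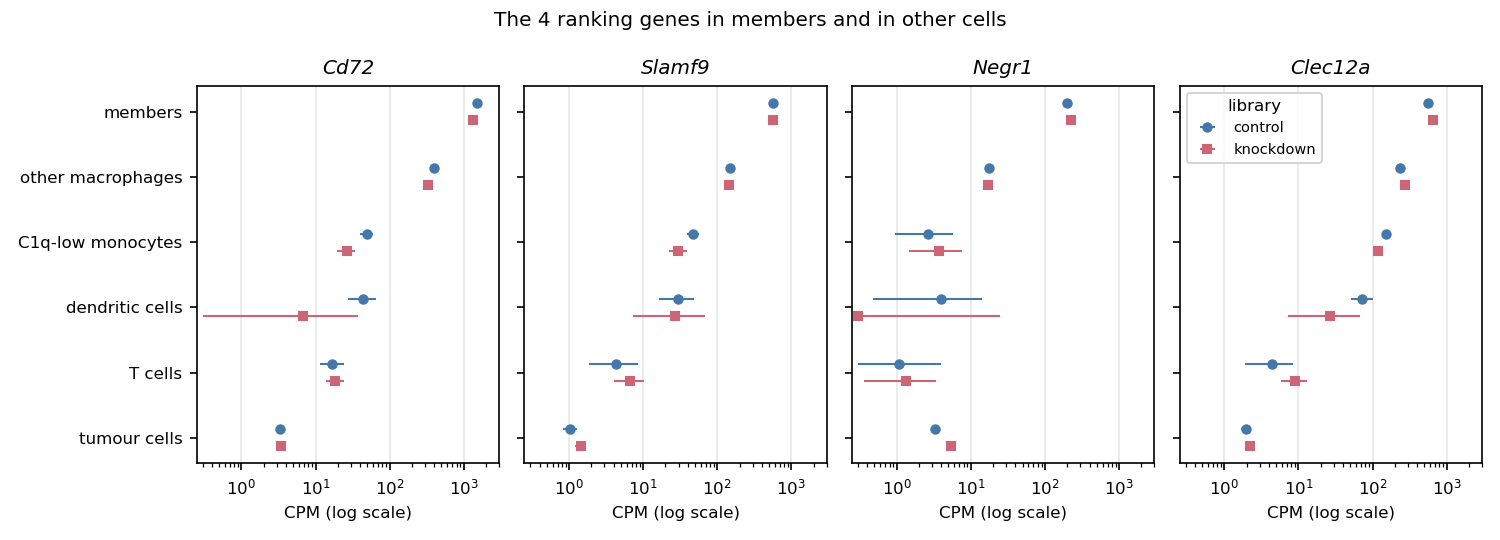
Levels of Cd72, Slamf9, Negr1 and Clec12a (CPM, log axis) in 6 cell populations of the control (circles) and knockdown (squares) libraries, with 95% counting intervals. The members lie furthest right for all 4 genes, and a population with no UMI is drawn at the left edge.

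Outside macrophages the 4 transcripts were scarce. Cd72 stood at 48.9 CPM in control and 26.2 in knockdown monocytes low in C1q, and at 16.8 and 18.6 in T cells. Clec12a reached 151 and 117 in those monocytes, which is below its level in the other macrophages of each library. Only 8 control and 4 knockdown barcodes met the B-cell markers, too few to give the B-cell level of Cd72. In barcodes of at most 100 UMIs, taken as empty droplets, Cd72 stood at 151 and 90.6 CPM.

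All 14 macrophage markers were at 20 CPM or more over the macrophages, which the gate on the C1q genes set in part. In both libraries 9 of the 14 were lower in members than in the other macrophages and 5 were higher. Their median log2 ratio was -0.29 in control and -0.31 in knockdown. The receptor gene Csf1r stood at 343 and 366 CPM in control and knockdown members against 422 and 430.2 in the other macrophages. Adgre1, which encodes the macrophage antigen F4/80, stood at 454 CPM in members and 358 in the other macrophages of the control library, and at 542 and 389 in knockdown. The C1q genes, which the gate used, were 1.18 to 1.30-fold higher in members. Of the same list, 5 were at least 1.5-fold lower in members of both libraries, among them Mertk, Mrc1, Lyz2 and Cd14. Lyz2, which encodes lysozyme, stood at 2812 CPM in control members against 6828 in the other control macrophages, and 3033 against 7309 in knockdown. Cd14, the lipopolysaccharide coreceptor, stood at 88.4 and 80.2 CPM in control and knockdown members against 338 and 305 in the other macrophages.

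Marker lists of other cell types were low in members for some types and not for others. The 5 T-cell markers summed to 2.09 CPM in control and 5.34 in knockdown members, the 4 natural killer cell markers to 2.09 and 3.56, and the 4 mast cell or basophil markers to 0.698 and 0.356. The markers of type 2 conventional dendritic cells summed to 4.88 and 6.06, and those of mature dendritic cells to 7.67 and 8.55. The markers of type 1 conventional dendritic cells summed to 13.95 and 23.9 CPM in members against 11.7 and 13.4 in the other macrophages. The neutrophil list summed to 64.4 and 74.1 CPM, nearly all from Csf3r at 63.0 and 69.1, while S100a8 and S100a9 were at 0.465 each in control members and 1.78 in knockdown members. The B-cell list summed to 46.0 and 37.8 CPM in members against 17.6 and 18.0 in the other macrophages, nearly all from Cd79b, while Pax5 was listed at 0 in members. The plasmacytoid dendritic cell list summed to 212 and 237 CPM in members against 237 and 230.0 in the other macrophages, mostly from Tcf4, and Klk1 was listed at 0. The endothelial list summed to 63.5 and 58.1 CPM in members against 36.1 and 50.3, mostly from Pecam1 at 50.7 and 49.5. The monocyte list summed to 186 and 133 CPM in members against 441 and 431. The fibroblast markers Col1a1, Col3a1, Dcn and Pdgfra summed to 92.3 CPM in control and 119 in knockdown members, below the 219 and 214 of the other macrophages, with 1966 and 1242 in empty droplets. Their part in the results below was not tested.

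Across 5834 genes with a mean of at least 20 CPM over macrophages, 105 (1.80%) were at least 1.5-fold higher in members in both libraries and 320 (5.49%) were at least 1.5-fold lower in both. The ranking used these cells, so the counts are a description. The minimum of 20 CPM took in the members, so a gene could enter through its level in them. Genes counted higher but below 20 CPM in the other macrophages of both libraries include Negr1, Pparg, Rapgef5, Cd244a and Cd79b. When cells were thinned to 1000 UMIs before ranking, the counts were 48 and 167. The median log2 ratio over all these genes was -0.02 in control and 0.01 in knockdown.

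Among receptors, Sirpb1a, an activating member of the signal-regulatory protein family, stood at 84.4 CPM in members and 21.4 in the other macrophages of the control library, and at 79.8 and 16.2 in knockdown. This was 3.95-fold (3.44 to 4.53) in control and 4.93-fold (4.09 to 5.95) in knockdown. Fpr2, a receptor for formylated peptides, stood at 45.1 CPM in control members against 16.1 in the other control macrophages, and 71.6 against 24.3 in knockdown. Each of these receptor genes was higher in members of both libraries. Tmem176b, which encodes a 4-pass membrane protein of endosomes, stood at 219 and 189.6 CPM in control and knockdown members against 81.2 and 74.2 in the other macrophages.

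The adapter genes Sh2d1b1 and Grap2 were among the 12 counted genes furthest above 1. Sh2d1b1 encodes EAT-2, an SH2 adapter that binds SLAM receptors. It stood at 119 CPM in members and 40.5 in the other macrophages of the control library, and at 107 and 28.9 in knockdown, or 2.95-fold (2.64 to 3.28) in control and 3.70-fold (3.18 to 4.30) in knockdown. Grap2 encodes GADS, an adapter that binds SLP-76. It stood at 117 CPM in control members against 37.8 in the other control macrophages, and 134 against 45.3 in knockdown, or 3.09-fold (2.77 to 3.45) in control and 2.96-fold (2.60 to 3.37) in knockdown. Rapgef5, an exchange factor for Rap GTPases, was 3.06 and 2.56-fold higher in control and knockdown members.

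Of 29 macrophage transcription factors tested, 2 were counted higher in members and 8 lower, against 1.80% and 5.49% of all genes tested. Pparg reached the minimum of 20 CPM only with the members included. Pparg, a nuclear receptor for fatty acid ligands, stood at 54.2 and 53.4 CPM in control and knockdown members against 12.4 and 15.7 in the other macrophages, which is 4.37-fold (3.66 to 5.2) in control and 3.40-fold (2.75 to 4.20) in knockdown. Batf3, a factor needed by conventional type 1 dendritic cells, stood at 70.5 CPM in members and 27.6 in the other macrophages of the control library, and at 74.1 and 30.0 in knockdown. Pou2f2, which encodes the octamer-binding factor Oct-2 and was not on that list, stood at 239.5 CPM in control members against 94.9 in the other control macrophages, and 314 against 108 in knockdown, or 2.52-fold (2.34 to 2.72) in control and 2.92-fold (2.68 to 3.17) in knockdown. Spi1, which encodes the myeloid factor PU.1, was 1.35-fold higher in both libraries. The lower factors included Runx3, Mitf, Nr4a1, Cebpb, Hif1a, Klf4 and Bhlhe40. Cebpb, a factor of inflammatory and alternative activation, stood at 333 and 290.4 CPM in control and knockdown members against 690.2 and 594 in the other macrophages. The list's median log2 ratio was -0.36 in control and -0.41 in knockdown.

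**Figure D2:**
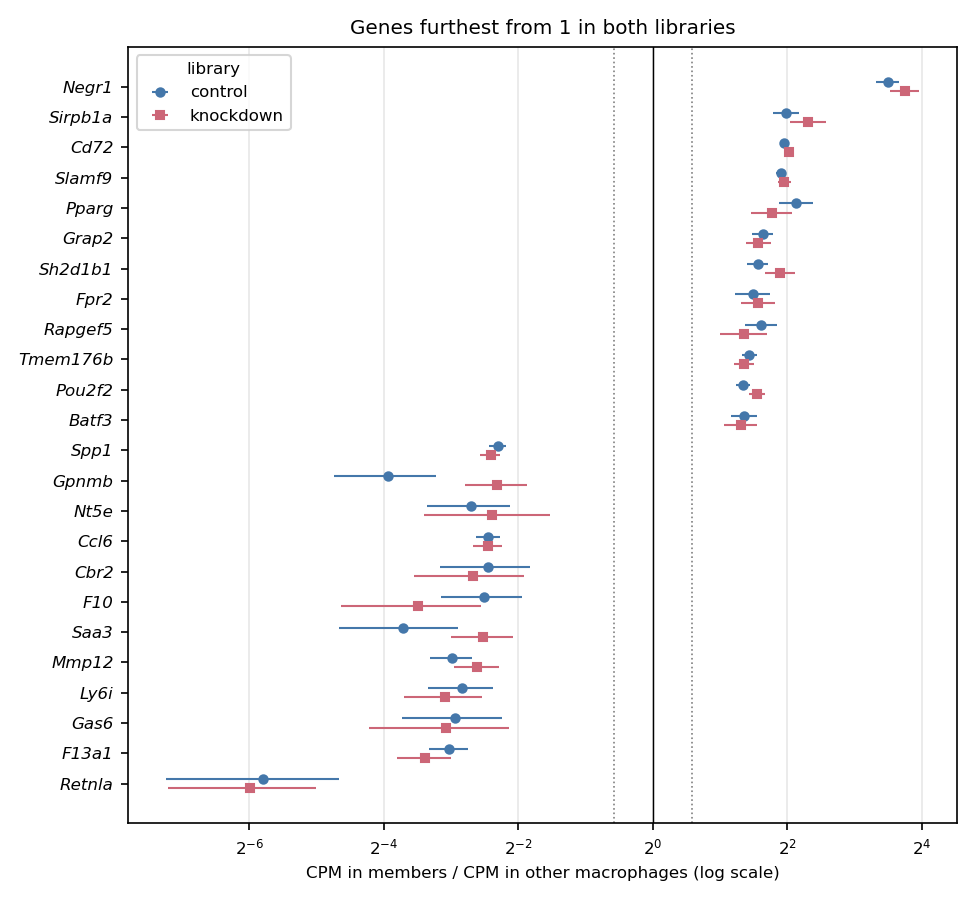
Ratio of CPM in members to CPM in the other macrophages (log axis), with 95% counting intervals and dotted lines at 1.5-fold. Shown are the 12 named genes furthest above and the 12 furthest below 1 in both libraries. Only genes with a mean of at least 20 CPM over macrophages entered, and Negr1, Cd72 and Slamf9 were used for ranking. Circles are control and squares knockdown, and Negr1 and Retnla mark the ends.

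Of 20 tested genes on the list of inhibitory receptors, 6 were counted higher in members and 1 lower, against 1.80% and 5.49% of all genes. Whether each listed gene acts as an inhibitory receptor was not tested. The 6 include Cd72 and Clec12a, which were used for ranking. The others were the Ly49 gene Klra2, at 1.54 and 1.67-fold, and 3 genes of the Clec4a family. Clec4a1 stood at 499 CPM in members and 226 in the other macrophages of the control library, and at 632 and 269 in knockdown. Clec4a2, which encodes the inhibitory lectin DCIR, stood at 422 CPM in control members against 211 in the other control macrophages, and 458 against 202 in knockdown. Clec4a3 stood at 362 and 399 CPM in control and knockdown members against 150.2 and 168 in the other macrophages. These 3 genes are close paralogues, and the labels do not state how reads shared among them were assigned. Fcgr2b, the inhibitory IgG receptor, was the lower one, at 392 CPM in members and 589.9 in the other macrophages of the control library, and at 323 and 508 in knockdown. Without the ranking genes the median log2 ratio of the 18 left was 0.09 in control and 0.15 in knockdown, near that of all genes. The difference thus lay in a few receptors and not across the list: Lair1, Pirb and Pilra had ratios of 1.06 to 1.26, and Sirpa of 0.904 and 1.01.

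C-type lectins divided. Of 11 tested, 4 were counted higher (Clec12a and the Clec4a genes above) and 4 lower, against 1.80% and 5.49% of all genes tested. The lower ones were the mannose receptor Mrc1 and the activating lectins Clec4d, Clec4n and Clec4e, which sense microbial glycolipids and mannans through Fcer1g. Clec4n, which encodes Dectin-2, stood at 30.0 CPM in control members against 117 in the other control macrophages, and 32.4 against 118 in knockdown. Clec4e, which encodes Mincle, stood at 9.30 and 13.9 CPM in control and knockdown members against 50.7 and 61.5 in the other macrophages. Clec4d was at 0.266 and 0.276 of its level in the other macrophages. Clec4b1, another gene of the list, was below the minimum for the counts over all macrophages but higher in members, at 73.2 CPM in members and 6.93 in the other macrophages of the control library, and at 75.9 and 8.92 in knockdown, or 10.6-fold (8.74 to 12.8) in control and 8.51-fold (6.81 to 10.7) in knockdown. Members thus had more of some lectins and less of others.

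In the SLAM family and its adapters, 3 of 9 genes tested were counted higher (Slamf9, Sh2d1b1 and Cd244a) and 1 lower. This stands against 1.80% and 5.49% of all genes tested, and Slamf9 was used for ranking. Cd244a, which encodes the receptor 2B4, stood at 34.4 CPM in control members against 18.3 in the other control macrophages, and 36.3 against 18.6 in knockdown. Its ligand gene Cd48 was 1.30 and 1.34-fold higher, short of 1.5. Cd84 was the lower one, at 127 and 123 CPM in control and knockdown members against 201 and 192 in the other macrophages. Slamf7, a self-ligand receptor, had ratios of 1.14 and 1.25.

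Of 22 genes of ITAM signalling, 2 were counted higher and 1 lower, against 1.80% and 5.49% of all genes tested. The count of lower genes is near the share of all genes. Fcer1g, the common Fc receptor gamma chain, stood at 5433 CPM in members and 3608 in the other macrophages of the control library, and at 5316 and 3518 in knockdown. Dok2, an adapter that dampens tyrosine kinase signalling, was the lower one at 0.390 and 0.438 of its level in the other macrophages. Other genes of the list were the phosphatase gene Ptpn6, which encodes SHP-1, at 1.48 and 1.41-fold, Lcp2, which encodes SLP-76, at 1.47 and 1.39-fold, and Blnk at 1.49 and 1.56-fold. In both libraries 14 of the 22 were above 1, with medians of 0.12 and 0.16 in log2. The Fc receptors differed both ways: Fcgr4 stood at 994 CPM in control members against 592 in the other control macrophages, and 1204 against 739 in knockdown, and Fcgr3 had ratios of 0.713 and 0.721.

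Antigen presentation genes differed little. Their median log2 ratios were 0.08 and 0.02 in control and knockdown for class I, and -0.03 and 0.01 for class II. None of 17 MHC class I genes was counted in either direction, and 1 of 11 MHC class II genes was. With 1.80% of all genes tested counted higher and 5.49% lower, these counts are near the share of all genes. H2-Ab1, a class II beta chain, stood at 3558 and 3790.0 CPM in control and knockdown members against 3867 and 3868 in the other macrophages. Cd74, the class II invariant chain, stood at 8210.1 CPM in members and 8418 in the other macrophages of the control library, and at 8523 and 8284 in knockdown. The costimulatory gene Cd86 was the exception, at 127 CPM in control members against 236 in the other control macrophages, and 99.1 against 179 in knockdown. Among 27 interferon-stimulated genes 2 were counted lower, Ifi205 and Rsad2, and none higher. Of 16 guanylate-binding and interferon-gamma genes none was counted. For both lists the counts are also near the share of all genes tested. Cxcl9, a chemokine induced by interferon-gamma, stood at 2206 and 3409 CPM in control and knockdown members against 1373 and 2487 in the other macrophages.

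Chemokines and their receptors differed member by member. Ccl4 was counted higher of 16 chemokines, at 802 CPM in members and 511 in the other macrophages of the control library, and at 841 and 523 in knockdown. Lower were Cxcl1, Ccl9, Pf4, Ccl6 and Cxcl2. Ccl6 stood at 60.0 CPM in control members against 328 in the other control macrophages, and 63.8 against 349 in knockdown. Pf4 stood at 213 and 179 CPM in control and knockdown members against 807 and 698 in the other macrophages. Ccl2, Ccl7 and Cxcl10 had ratios of 1.02 to 1.12 in both libraries. Of 12 receptors for chemoattractants, Fpr2 and the fractalkine receptor gene Cx3cr1 were counted higher and 5 lower. The shares over all genes tested were 1.80% higher and 5.49% lower. Cx3cr1 stood at 357 CPM in members and 232 in the other macrophages of the control library, and at 414 and 258 in knockdown. The monocyte recruitment receptor Ccr2 had ratios of 0.679 and 0.557, and Ccr1 of 0.418 and 0.383.

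**Figure D3:**
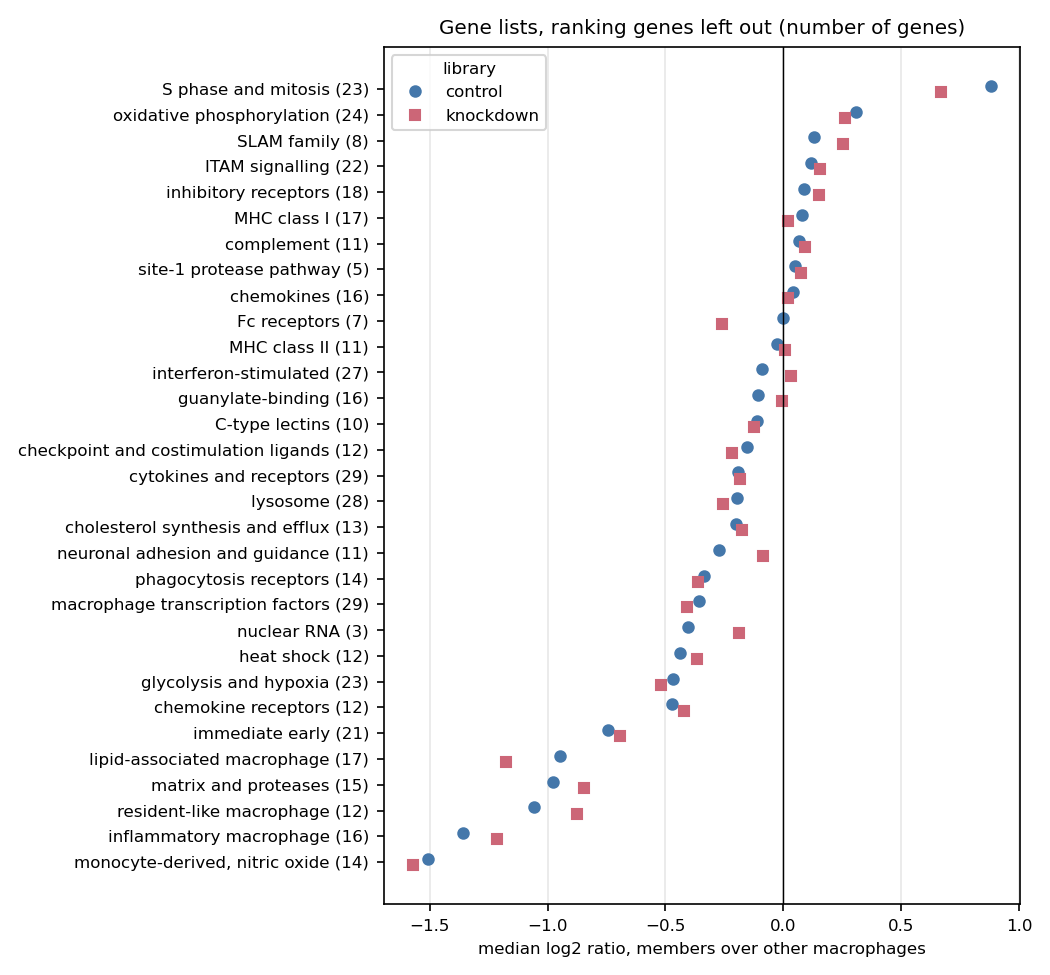
Median log2 ratio of members to other macrophages for each gene list, without the ranking genes, with the number of genes tested in parentheses. Circles are control and squares knockdown: S phase and mitosis lies furthest right and the monocyte-derived list furthest left in both libraries.

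Genes of 4 other macrophage states were mostly lower in members, against 5.49% of all genes tested. In the lipid-associated list 10 of 17 were counted lower and none higher, with median log2 ratios of -0.95 and -1.18. Spp1, which encodes the matrix protein osteopontin, stood at 136 CPM in control members against 672 in the other control macrophages, and 135 against 718 in knockdown. Fabp5, a fatty acid chaperone, stood at 136 and 122 CPM in control and knockdown members against 638 and 613 in the other macrophages. Gpnmb, a lysosomal glycoprotein, stood at 3.72 CPM in members and 57.0 in the other macrophages of the control library, and at 15 and 74.6 in knockdown. Trem2, the lipid-sensing receptor, was an exception with ratios of 0.858 and 0.802, and Apoe had 0.705 and 0.744.

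In the resident-like list 8 of 12 were counted lower and 1 higher. F13a1, which encodes the coagulation factor XIII A chain, stood at 23.7 CPM in control members against 194 in the other control macrophages, and 19.2 against 201 in knockdown. Gas6, a ligand of the phagocytic receptor Mertk, stood at 3.95 and 3.21 CPM in control and knockdown members against 30.3 and 27.2 in the other macrophages. Folr2, the folate receptor beta, stood at 37.2 CPM in members and 88.4 in the other macrophages of the control library, and at 46.7 and 99.6 in knockdown. Ms4a7 was the higher one, at 1955 CPM in control members against 1154 in the other control macrophages, and 2039 against 1347 in knockdown.

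The inflammatory list had 10 of 16 lower and 1 (Ccl4) higher. Il1b stood at 116 and 134 CPM in control and knockdown members against 336 and 339 in the other macrophages. Nlrp3, the inflammasome sensor, and Ptgs2, which encodes cyclooxygenase-2, had ratios of 0.351 and 0.350 and of 0.387 and 0.425. Tnf did not move with them, at ratios of 1.10 and 0.862. The monocyte-derived list, which holds nitric oxide and arginine genes, had 8 of 14 lower and 1 (Fpr2) higher. Arg1, which encodes arginase 1, stood at 269 CPM in members and 1308 in the other macrophages of the control library, and at 235 and 948 in knockdown. Ly6c2, a marker of recent monocytes, stood at 38.8 CPM in control members against 84.2 in the other control macrophages, and 20.3 against 106 in knockdown. Retnla, which encodes a secreted protein of alternative activation, was at 6 UMIs in all control members and 8 in all knockdown members, or 0.0180 and 0.0157 of its level in the other macrophages. A single macrophage held 993 Retnla UMIs and 1 held 414 UMIs of the acute-phase gene Saa3, so the levels of these 2 genes in the other macrophages rest partly on few cells.

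Macrophages were also ranked by 3 genes of 3 of these lists. The top 15% by Spp1, Mmp12 and Fabp5 held 1.82% (0.911 to 3.23) of control members and 2.84% (1.63 to 4.57) of knockdown members, against 17.1% and 17.4% of the other macrophages. The top 15% by Mrc1, Stab1 and Fcrls held 5.79% and 6.57% of members against 16.9% and 16.1%. The top 15% by Nlrp3, Ptgs2 and Il1b held 6.45% and 5.51% against 16.8% and 16.4%. Both rankings use the same cells' UMIs, so these shares are a description.

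Cell cycle genes were higher in members. Of 23 genes of S phase and mitosis, 14 were counted higher and none lower, against 1.80% and 5.49% of all genes tested. All 23 were above 1 in both libraries, with median log2 ratios of 0.88 and 0.67. Tk1, which encodes thymidine kinase, stood at 87.0 and 98.3 CPM in control and knockdown members against 33.9 and 40.6 in the other macrophages. Top2a, which encodes topoisomerase II alpha, stood at 167 CPM in members and 90.5 in the other macrophages of the control library, and at 223 and 132 in knockdown. Birc5, which encodes survivin, stood at 133 CPM in control members against 68.8 in the other control macrophages, and 149 against 73.2 in knockdown. After thinning to 1000 UMIs, 19.3% (16.3 to 22.7) of control members and 24.5% (21.0 to 28.3) of knockdown members held 2 or more UMIs of 10 cell cycle genes, against 10.5% and 13.1% of the other macrophages. At full depth the shares were 57.4% and 59.0% against 38.4% and 43.0%. With the top 15% of macrophages by Mki67, Top2a and Birc5 left out and the rest ranked anew, 72 genes were counted higher in members and 290 lower.

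Metabolic genes divided by pathway. All 23 glycolysis and hypoxia genes tested were below 1 in both libraries, and 8 were counted lower, against 5.49% of all genes. Vegfa, the vascular growth factor gene, stood at 35.1 and 33.8 CPM in control and knockdown members against 101 and 89.6 in the other macrophages. Slc2a1, which encodes the glucose transporter GLUT1, stood at 65.6 CPM in members and 132 in the other macrophages of the control library, and at 47.7 and 95.4 in knockdown. Of 24 nuclear genes of oxidative phosphorylation, 21 were above 1 in both libraries and none reached 1.5-fold in both. Their medians were 0.31 and 0.26 in log2. Ndufa4 was 1.72 and 1.27-fold higher and Cycs, which encodes cytochrome c, 1.58 and 1.44-fold.

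Stress and immediate early genes were lower. Of 21 immediate early genes 10 were counted lower and none higher, against 5.49% and 1.80% of all genes tested. Junb stood at 331 CPM in control members against 613 in the other control macrophages, and 305 against 546 in knockdown. Of 12 heat shock genes 4 were lower, and Hspa1a stood at 564 and 429 CPM in control and knockdown members against 1009 and 767 in the other macrophages. These genes are known to respond to tissue dissociation, and their part in the other differences was not tested. The mitochondrial share of UMIs was 2.26% and 1.65% in control and knockdown members and 2.04% and 1.49% in the other macrophages.

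Of 14 phagocytosis receptors and ligands 6 were counted lower and none higher. Mertk, the receptor for apoptotic cells, stood at 87.4 CPM in members and 154 in the other macrophages of the control library, and at 91.9 and 148 in knockdown, and the scavenger receptor gene Msr1 at 161 CPM in control members against 324 in the other control macrophages, and 172 against 332 in knockdown. Of 28 lysosome genes 2 were lower, the cathepsins Ctsd and Ctsl, a share near the 5.49% of all genes tested. Ctsd stood at 663 and 597 CPM in control and knockdown members against 1313 and 1365 in the other macrophages. Of 15 matrix and protease genes 8 were lower, and fibronectin, encoded by Fn1, stood at 168 CPM in members and 573 in the other macrophages of the control library, and at 148 and 604 in knockdown. Of 13 genes of cholesterol synthesis and efflux, the efflux pump Abca1 alone was counted, lower at 0.446 and 0.502, while Abcg1 had ratios of 1.46 and 1.55.

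The levels of Pou2f2, Ccl6 and Spp1 differed along the score on both sides of the threshold. In control, Pou2f2 went from 60.8 CPM in the lowest 25% of macrophages by score to 155 in the 75th to 85th percentiles, 193 in the 85th to 95th and 334 in the top 5%. In knockdown the same 4 steps were 70.0, 169.8, 277 and 397 CPM. Ccl6 went the other way, from 766 in the lowest 25% to 271 in the next 25% and 42.7 in the top 5% of control, and from 798 to 277 and 59.6 in knockdown. Spp1 also went down the score, from 999 to 78.3 CPM in control and from 1098 to 59.6 in knockdown. Fpr2 did not follow such a course below the threshold: in control it stood at 20.3, 14.9, 12.5 and 20.9 CPM up to the 85th percentile, then at 28.6 and 78.3. H2-Ab1 was highest in the middle of the ranking, at 4186 CPM in the 50th to 75th percentiles of control against 3096 in the top 5%.

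**Figure D4:**
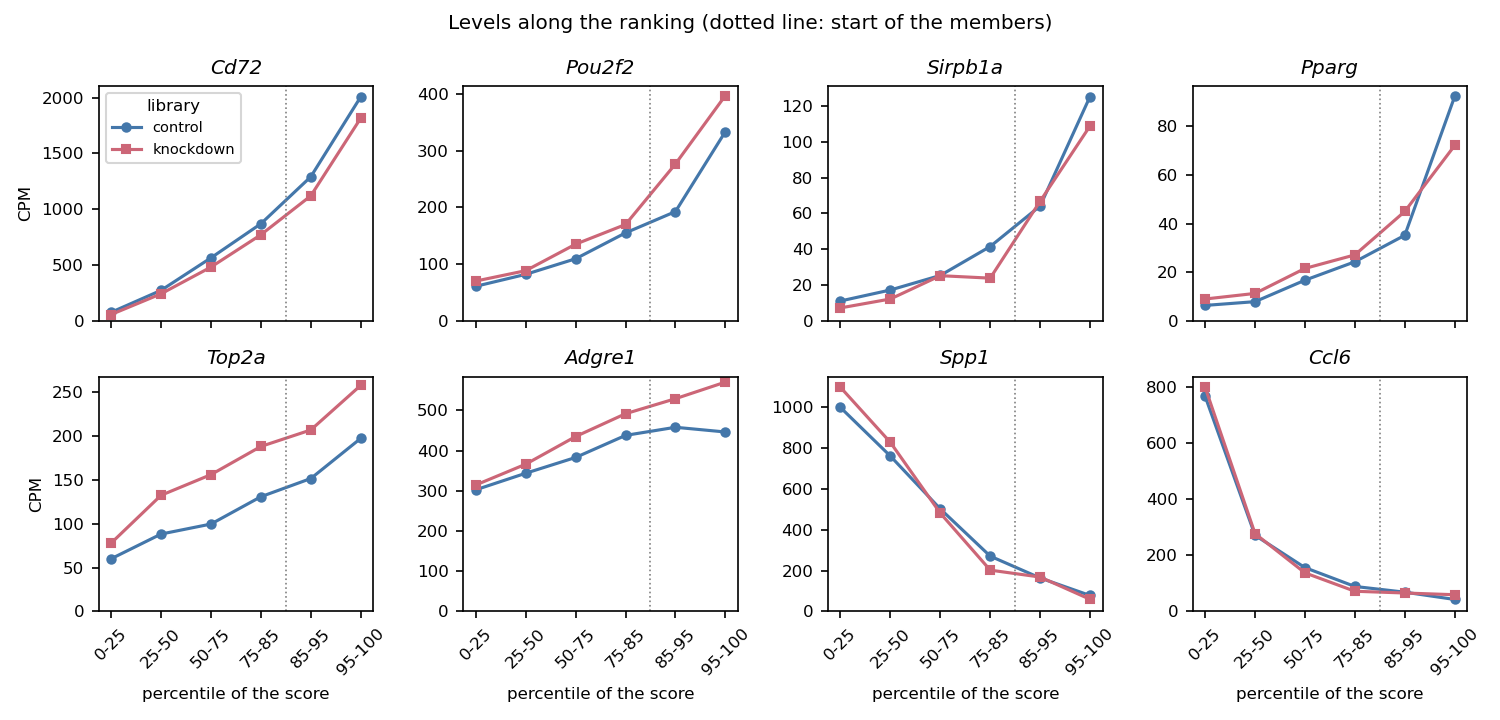
CPM of 8 genes in 6 bins of the ranking score, from the lowest 25% to the top 5% of macrophages, for control (circles) and knockdown (squares). The dotted line marks where the members begin, and the levels of Pou2f2, Spp1 and Ccl6 differ between bins on both sides of it.

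The members were also split by whether they held a Negr1 UMI. Negr1 is a ranking gene, so the split follows in part from the score and its ratios are a description. In control 230 members held a Negr1 UMI and 375 did not, at median depths of 7461 and 6344 UMIs. Cd72 in members with Negr1 against those without had a ratio of 1.02 (0.973 to 1.07) in control and 0.874 (0.819 to 0.934) in knockdown. Pparg was 2.95-fold (2.23 to 3.95) and 2.32-fold (1.64 to 3.31) higher in members with Negr1. Sirpb1a was 2.14-fold and 1.89-fold higher, Grap2 2.19-fold and 1.94-fold, and the cell cycle gene Top2a 1.58-fold and 1.79-fold. Spp1 was at 0.356 and 0.475 of its level in members without a Negr1 UMI, and Mrc1 at 0.629 and 0.659. Deeper cells are more likely to show a Negr1 UMI, and the part of depth in these ratios was not tested.

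The members made up a similar share of macrophages in both libraries. They were 14.5% (13.4 to 15.6) of 4182 control macrophages and 15.7% (14.5 to 16.9) of 3596 knockdown macrophages. The ratio of the shares was 1.08 (0.963 to 1.22), and 0.991 when cells were thinned to 1000 UMIs before ranking. The interval covers counting error only, and with 1 library per group a difference between the conditions could not be tested. As a share of all barcodes of at least 1000 UMIs, members were 4.86% in control and 3.50% in knockdown, while all macrophages were 33.6% and 22.3%. Within macrophages of 4000 to 8000 UMIs the members' share was 15.3% and 17.7%, and within those of 1000 to 2000 UMIs it was 9.05% and 6.97%.

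Between libraries, members differed at 113 of 5729 genes (1.97%) that were at least 1.5-fold higher in knockdown and at 52 (0.908%) that were at least 1.5-fold lower. These compare 1 library with another and not the conditions. Of the 113, 101 were also above 1 in the other macrophages, and of the 52, 45 were also below 1 there. Most of these genes thus lay on the same side in members and in the rest. The median log2 ratio over all genes was 0.06 in members and 0.03 in the other macrophages. The libraries also differed in depth, and the tumour-cell gene Hmga2 stood at 11.4 CPM in control members and 25.7 in knockdown members, against 11.1 and 28.5 in the other macrophages. With macrophages of each depth given the same weight in both libraries, 266 genes were counted higher in knockdown members. The part of tumour RNA in these counts was not tested.

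**Figure D5:**
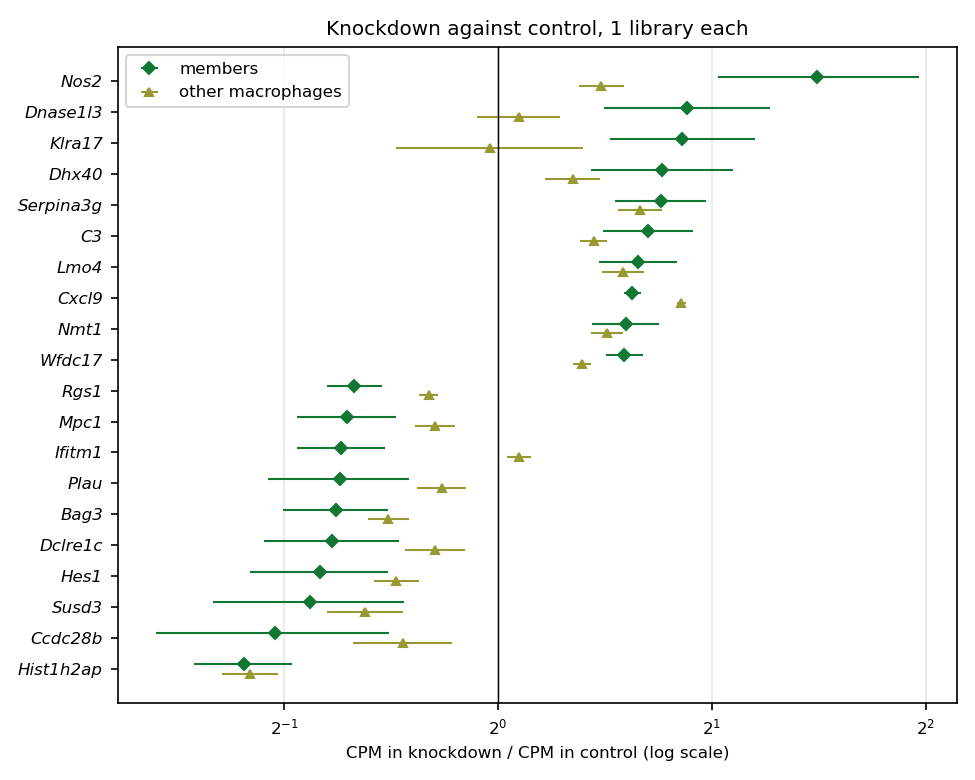
Ratio of CPM in knockdown to CPM in control (log axis) for 10 genes higher and 10 lower in members, with 95% counting intervals. They were chosen among genes past 1.5-fold by the interval end nearest 1, not by the size of the ratio. Diamonds are members and triangles the other macrophages, and Ifitm1 lies on different sides of 1 in the 2 groups of cells.

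The genes higher in knockdown members included targets of interferon-gamma. Cxcl9 stood at 2206 CPM in control members and 3409 in knockdown members, a ratio of 1.55 (1.5 to 1.59), and its ratio was 1.81 (1.78 to 1.84) in the other macrophages. Nos2, which encodes the inducible nitric oxide synthase, stood at 14.2 CPM in control members and 39.9 in knockdown members, a ratio of 2.81 (2.04 to 3.91) against 1.40 (1.30 to 1.5) in the other macrophages. Serpina3g, a protease inhibitor, stood at 82.1 CPM in control members and 139 in knockdown members, with ratios of 1.69 in members and 1.59 in the rest. Of 15 guanylate-binding and interferon-gamma genes tested between libraries, 3 were counted higher in knockdown members and none lower, with a median log2 ratio of 0.29 in members and 0.20 in the other macrophages. Interferon-stimulated genes did not move with them, with 1 of 26 higher, 1 lower and a median of -0.02. These counts stand against 1.97% higher and 0.908% lower over all genes tested.

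The other genes higher in knockdown members had different roles. C3, the central complement component, stood at 83.5 CPM in control members and 136 in knockdown members, and Wfdc17, a secreted inhibitor, at 530.4 CPM in control members and 799 in knockdown members. Lmo4, a transcriptional adapter, had ratios of 1.57 in members and 1.5 in the rest, and Nmt1, an N-myristoyltransferase, 1.51 and 1.42. Dnase1l3, a secreted DNase, stood at 24.2 CPM in control members and 44.5 in knockdown members, a ratio of 1.84 (1.41 to 2.41) against 1.07 (0.933 to 1.22) in the other macrophages. The Ly49 family gene Klra17 stood at 31.4 CPM in control members and 57.0 in knockdown members, a ratio of 1.82 (1.44 to 2.30) against 0.976 (0.719 to 1.32). Klra17 was itself 6.20-fold and 11.5-fold higher in members than in the other macrophages, whose level of 5.06 and 4.94 CPM kept it below the minimum for the counts above. Klra genes are close paralogues, and reads shared among them could be split.

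The genes lower in knockdown members included Rgs1, a regulator of chemokine receptor signalling, which stood at 397 CPM in control members and 249 in knockdown members, a ratio of 0.627 (0.574 to 0.686) against 0.799 (0.775 to 0.824) in the other macrophages. The histone gene Hist1h2ap stood at 164 CPM in control members and 72.0 in knockdown members, with ratios of 0.438 in members and 0.448 in the rest. Hes1, a target of Notch, stood at 70.5 CPM in control members and 39.5 in knockdown members, and Bag3, a cochaperone, at 116 CPM in control members and 68.8 in knockdown members. Mpc1, a subunit of the mitochondrial pyruvate carrier, stood at 126 CPM in control members and 77.0 in knockdown members. Plau, which encodes urokinase, stood at 64.9 CPM in control members and 38.8 in knockdown members, with ratios of 0.599 and 0.833. Ifitm1, an interferon-induced membrane protein, stood at 162 CPM in control members and 97.3 in knockdown members, a ratio of 0.601 (0.521 to 0.692), and in the other macrophages it had a ratio of 1.07 (1.03 to 1.11).

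Most of the members' own leading genes differed little between libraries. Cd72 had a ratio of 0.874 (0.840 to 0.910) in members and Slamf9 of 0.991 (0.929 to 1.06), though the pooled ranking sets these in part. Among genes not used for ranking, Pparg had 0.986 (0.798 to 1.22), Batf3 1.05 (0.877 to 1.26) and Grap2 1.15 (1.0 to 1.32). Pou2f2 had 1.31 (1.20 to 1.44), with 1.13 in the other macrophages, and Fpr2 had 1.59 (1.30 to 1.94), with 1.5. Rapgef5 went the other way, at 0.708 (0.555 to 0.898), with 0.845 in the rest. None of 6 tested genes of the site-1 protease pathway was counted in either direction. Over all genes tested 1.97% were counted higher and 0.908% lower, so for so few genes this count is near the share of all genes. Atf6, whose protein the site-1 protease cleaves, stood at 109 CPM in control members and 113 in knockdown members, and Srebf2, another of its substrates, at 29.3 CPM in control members and 32.1 in knockdown members.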

How the data were processed

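The authors deposited unfiltered matrices of whole UMI counts for 32285 genes in each of the 2 libraries, made with Cell Ranger 4, per the file headers. Neither labels nor headers name the build or the annotation used. No normalized values were used. Macrophages and members were found by the limits given in the report, and the members and gene lists were chosen with earlier results of these data known. The matrices held 177399315 UMIs in control and 174190399 in knockdown, with 12449 and 16097 barcodes of at least 1000 UMIs. Members summed to 4300450 and 2806577 UMIs.

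Counts were summed per library over members and over the other macrophages and divided by their total to give CPM. Genes entered with a mean of at least 20 CPM, over macrophages or, for the comparison of libraries, over members, and were counted at 1.5-fold, in both libraries for members against the other macrophages. Ratios have exact conditional Poisson intervals and shares exact Clopper-Pearson intervals at 95%. Named genes were the 4 ranking genes, the 12 highest and 12 lowest against the other macrophages, the 10 highest and 10 lowest between libraries by the interval end nearest 1, and from each list the 3 with the highest level and those with the most extreme ratios. Mitochondrial, ribosomal and unnamed genes, and genes not above empty droplets, were left out of the names. Other list genes were named after their values were seen.

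Doublets were held back only by the limits on Cd3d, Cd3e, Hmga2 and Rhox5. Scrublet, run as an alternative, called 444 (3.59%) and 774 (4.83%) barcodes, of which 0 control and 1 knockdown member. Python 3.11.15, numpy 2.4.6, scipy 1.17.1, pandas 2.3.3 and scanpy 1.11.5 were used, and the steps were tested on simulated data. Alternatives changed the depth, mitochondrial and C1q limits, the share taken as members, the ranking, the gene minimum and the treatment of doublets. A few genes of the lists are not reported here by name.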

Additional observations from a re-analysis of the deposited data

Results flagged for a closer look

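In 3 genes the ratio of knockdown to control lay past 1.5-fold on one side of 1 in members and on the other side in the other macrophages, with counting intervals that left out 1 in both. The difference between the 2 groups of cells was not tested, since each library is 1 sample. Ifitm1 had a ratio of 0.601 in members and 1.07 in the other macrophages. Ifit1, an interferon-induced RNA-binding protein, had 1.55 (1.28 to 1.88) in members, on 218 control and 221 knockdown UMIs, and 0.841 in the other macrophages. Its level in members went from 50.7 to 78.7 CPM. One macrophage held 84 Ifit1 UMIs. Whether that cell was a member was not tested, so the ratio in members may rest partly on it. Nedd9, a scaffold protein of adhesion signalling, had 1.53 (1.11 to 2.12) in members, on 80 UMIs in each library, and 0.837 in the other macrophages.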

How the results depend on the processing

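Counts of genes depended on the gene minimum and on how the members were ranked. With a minimum of 10 CPM, 172 genes were counted higher in members, 270 higher in knockdown members and 107 lower, from more genes tested. With 50 CPM, 50 were higher and 194 lower in members, and 22 were higher and 21 lower in knockdown members, from fewer genes tested. Ranking after thinning to 1000 UMIs gave 48 higher and 167 lower in members. Taking the top 10% gave 196 higher in knockdown members, and the top 25% gave 60 higher and 29 lower. Ranking on one set of each cell's UMIs and reading the other gave 225 and 112, and equal weights of depth bins gave 266 higher. The cause was not tested for these rankings. Leaving out the top 15% of macrophages by Mki67, Top2a and Birc5 was an alternative chosen after seeing the data. It gave 72 and 290 genes in members and 134 and 62 between libraries.

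The ratio of member shares ran from 0.991 to 1.13 over its alternatives. The 884 values of named genes under 13 settings kept their direction, and 727 stayed within the counting interval. Of 1392 list medians 1387 were not counted as turned. A median that began near 0 was not counted when its sign changed, so such medians are among the 1387. The C-type lectin medians turned to -0.55 in control and -0.68 in knockdown at 10 CPM, the nuclear RNA median to 0.036 in knockdown at 10 CPM, the neuronal adhesion median to 0.11 in control at 50 CPM, and the inflammatory median between libraries to -0.011 with the top 25%. No paired analysis was possible because each group is 1 library. Depth limits genes of few UMIs most, such as Retnla in members.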

Other observations

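A few genes known from other cell types were higher in members. They were picked after their values were seen. Xcr1, the chemokine receptor of conventional type 1 dendritic cells, stood at 10.0 CPM in control members against 0.954 in the other control macrophages. In knockdown Xcr1 stood at 16.4 against 2.33. Clec9a, another marker of those cells, stood at 2.56 and 3.21 in members against 2.12 and 2.06. Cd24a, of the same marker list, went the other way, at 0.233 CPM in control members against 7.26 in the other control macrophages. In knockdown Cd24a stood at 2.49 against 6.52. Cd79b, a chain of the B-cell receptor complex, stood at 44.9 CPM in control members against 17.0 in the other control macrophages, and 37.8 against 16.9 in knockdown. Cd79a, its partner chain, stood at 0.465 CPM in control members and was listed at 0 in knockdown members. The adhesion gene Cadm1 stood at 99.5 and 150.0 CPM in control and knockdown members against 54.9 and 77.5 in the other macrophages. The cytokine gene Tnfsf13b, which encodes the B-cell survival factor BAFF, stood at 68.4 CPM in members and 37.8 in the other macrophages of the control library, and at 72.0 and 47.3 in knockdown.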
